A study of Mus musculus with 29 samples.

Results

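The genes described here are those of mitosis and its spindle checkpoint, followed in the bone marrow and spleen of mice with an inducible MLL-ENL fusion. A list of 45 symbols was taken as given, and a gene was measured where a probe set was annotated to its symbol alone. By this rule 42 of the 45 listed genes were measured, out of 12394 genes in all, and Ccnb1, Cdca8 and Espl1 had no such probe set in the annotation used. The fusion protein MLL-ENL drives acute leukaemia. In MLL-ENL-ERtm it carries a mutated hormone-binding domain of the oestrogen receptor which makes its activity depend on tamoxifen. Every mouse, wild type included, was given chow with 300 mg/kg tamoxifen. From MLL-ENL-ERtm marrow there were 4 arrays of a proliferation state (tamoxifen for 7 months), 4 of a transition state (7 to 8) and 3 of senescence (8). The 4 wild-type marrows had 8 months (replicate 1) or 7 (the others). From MLL-ENL-ERtm spleen there were 3 early arrays (each at 7 months), 3 of progression (10, 10 and 9) and 3 terminal ones (21, 23 and 19), set against 5 wild-type spleens (24, 8, 9, 11 and 11 months). The labels describe the proliferation state of marrow as highly proliferating with a weak DNA damage response, and transition as less proliferative with a strong one. They describe early spleens as having proliferation and the damage response switched on, progression as partly senescent, and terminal spleens as proliferating without senescence. Wild-type mice are called matched in age and time. The promoter that drives the fusion, and the strain, sex and age of the mice, are not given in the sources used here.

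During mitosis the kinase CDK1, bound to its cyclins, starts the condensation of chromosomes and the building of the spindle. Kinetochores are the protein plates on centromeres that catch spindle microtubules, and as long as some are unattached, the spindle checkpoint keeps CDC20 from switching on the anaphase promoting complex, a ubiquitin ligase. Once it is on, securin and cyclin B are destroyed, sister chromatids part and the cell divides. Most of these genes are transcribed together late in the cell cycle, so in marrow and spleen, where blood cells are made, their RNA is widely used as a sign of how many cells are dividing.

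Promoter letters known from late cell cycle genes were counted. Sequences of 250 bases before to 50 bases after the start, credited to RefSeq with the build GRCm38.p6, were matched by symbol for 36 of the 42 genes, giving 38 promoters. The letters TTTGAA, a form of the cell cycle genes homology region, lay on either strand of 30 of the 38 promoters (78.9%), against 17.9% of all 32851 promoters of the table. The letters CCAAT, known from NF-Y binding, lay in 29 (76.3%), against 37.4%. Both stood together in 27 (71.1%), against 6.95%. The related letters TTCGAA were in 3 (7.89%, against 1.56%), and the E2F letters GCGGGAA were in 1 (2.63%, against 4.6%). Of 39 TTTGAA positions, in which both promoters of Ect2 and of Prc1 are counted, 28 lay within 50 bases of the start. Positions were not counted over all promoters. These letter counts are descriptions and do not show that a factor binds.

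The 120 bases just before the start are shown for 6 genes that behaved differently in the spleen, with TTTGAA and CCAAT in capitals on either strand (their reverse complements are TTCAAA and ATTGG). Kif11 (chr19:37376262-37376381, plus strand) and Top2a (chr11:99024190-99024309, minus strand) were higher than in wild type at all 3 spleen stages. Cdc20 (chr4:118437344-118437463, minus strand) was higher at the early and progression stages and Cdk1 (chr10:69352913-69353032, minus strand) in progression. Ube2c (chr2:164769809-164769928, plus strand) and Mki67 (chr7:135716380-135716499, minus strand) were lower than in wild type at the terminal stage.
Kif11: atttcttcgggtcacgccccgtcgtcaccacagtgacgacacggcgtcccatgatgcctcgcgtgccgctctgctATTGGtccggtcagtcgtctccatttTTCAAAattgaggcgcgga
Top2a: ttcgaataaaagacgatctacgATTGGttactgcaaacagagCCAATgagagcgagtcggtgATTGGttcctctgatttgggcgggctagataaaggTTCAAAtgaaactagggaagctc
Cdc20: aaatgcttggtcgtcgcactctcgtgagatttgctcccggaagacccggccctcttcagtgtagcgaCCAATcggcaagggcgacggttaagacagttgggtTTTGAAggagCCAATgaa
Cdk1: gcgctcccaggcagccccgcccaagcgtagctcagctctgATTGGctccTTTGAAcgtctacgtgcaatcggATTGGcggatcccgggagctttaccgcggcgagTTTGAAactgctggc
Ube2c: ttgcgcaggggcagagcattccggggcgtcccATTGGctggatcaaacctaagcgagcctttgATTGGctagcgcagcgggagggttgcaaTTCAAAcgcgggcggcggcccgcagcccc
Mki67: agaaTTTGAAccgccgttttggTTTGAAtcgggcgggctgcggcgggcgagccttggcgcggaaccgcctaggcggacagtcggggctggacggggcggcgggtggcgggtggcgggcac
In Kif11, Cdc20 and Ube2c a TTTGAA began at positions -19, -18 and -29 from the start, whereas in Mki67 the nearest began at -98. Among the 9 matched promoters of genes that were higher in terminal spleens, 7 held TTTGAA (all but those of Bub1 and Cenpe). Among the 6 of genes that were lower there, 3 held it (all but those of Birc5, Nusap1 and Pttg1), and among the 23 of genes that did not pass, 20 held it.

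Levels are log2 values as deposited, made with RMA, in which 1 unit is a factor of 2, and a probe set's level cannot be set against another's. The median of a marrow array lay between 8.11 and 8.29 and that of a spleen array between 6.73 and 6.90, so the tissues were compared only through differences within each. Differences are given ± their standard error from limma, and a gene passed at an adjusted p (Benjamini-Hochberg over all 12394 genes) under 0.05. The labels call the arrays biological replicates without naming animals, so it is unknown whether a marrow and a spleen array share a mouse. Several arrays stood apart. Xist, which marks female cells, was high (11.58 to 13.32) in all proliferation, transition and terminal arrays. Otherwise it was high on single arrays only, among them wild-type marrow 3 and 4 and wild-type spleens 1 and 5. On no progression spleen was it high (5.39 to 5.72). Proliferation marrow 1 had a fat and muscle gene mean of 10.77 against at most 8.00 on the other marrow arrays. Wild-type spleen 3, early spleen 1 and wild-type spleen 5 had pancreas gene means of 11.92, 7.59 and 7.24, against 4.69 to 5.20 on the other spleens. Late neutrophil genes were bright on every marrow array (means of 14.33 to 14.76) and B cell genes on the wild-type spleens (10.39 to 10.70). On the fusion spleens the B cell mean was 5.86 to 9.39, so it does not check the tissue label of those arrays.

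**Figure D1:**
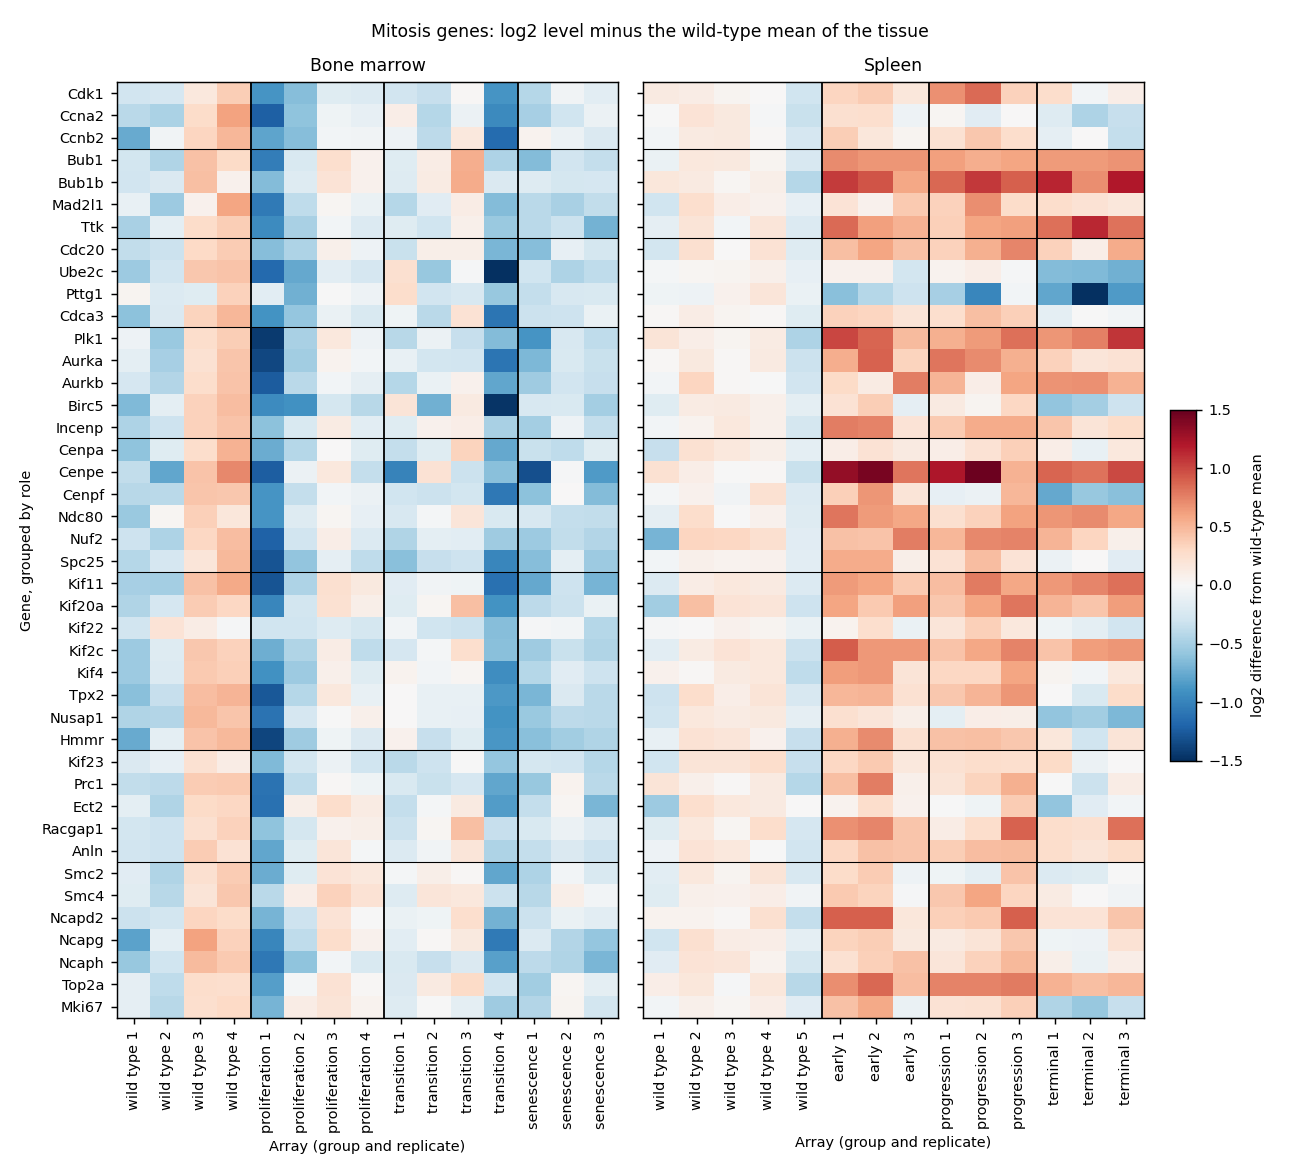
Log2 level of each of the 42 genes (rows, grouped by role) on each array (columns) minus the wild-type mean of the same tissue, with red above and blue below that mean (colours end at 1.5 units). Early and progression spleens are red in most rows, terminal spleens split into rows of both colours, and the fusion marrows hold no row that passed the test.

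In the spleen, many mitosis genes were higher than in wild type at the early and progression stages, 13 of them at both (5.48% of all genes). At the early stage 18 of the 42 genes were higher than in wild type and none was lower, when 15.9% of all genes passed (7.35% higher and 8.55% lower). In progression 20 were higher and none was lower, against 19.3% of all genes (9.29% higher and 9.96% lower). At the terminal stage 11 were higher and 6 lower, against 34.5% of all genes (18.1% higher and 16.3% lower). The median difference of the 42 genes was 0.40, 0.41 and 0.06 at the 3 stages, beside 0.03, 0.04 and 0.04 over all genes. Bub1, Bub1b, Ttk, Plk1, Cenpe, Ndc80, Kif11, Kif2c and Top2a, 9 genes in all, were higher at each stage (5.25% of all genes), and 10 genes passed at none, as did 59.4% of all genes (Ccna2, Ccnb2, Cenpa, Kif22, Kif23, Prc1, Ect2, Smc2, Ncapg and Ncaph). The 3 comparisons share the 5 wild-type spleens, so their calls are not independent. Of these, wild-type spleen 5 had the lowest level of all 14 arrays for 22 of the 42 genes, and without it 11 genes passed at the early stage, 12 in progression and 17 at the terminal stage. At the early stage 10 passed without early spleen 1 and 9 without early spleen 2, and in progression 9 passed without replicate 2. Without wild-type spleen 3 and early spleen 1 the early count was 6. With wild-type spleen 5 left out as well, so that all 3 arrays with pancreas signal were gone, the counts were 2 (early), 7 (progression) and 12 (terminal), with median differences of 0.34, 0.34 and 0.03. Over all alternatives tried, Bub1 and Kif2c kept the early call each time, Bub1b, Aurka, Cenpe, Kif11 and Kif2c the progression call, and 11 genes the terminal call (Bub1, Bub1b, Ttk, Plk1, Cenpe, Ndc80, Kif11 and Kif2c as higher, Ube2c, Pttg1 and Cenpf as lower). In whole tissue, more dividing cells and more RNA per cell cannot be told apart.

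The groups could also be read from the single arrays. All early arrays lay above all wild-type arrays for 21 of the 42 genes and below them for Pttg1, where 12.3% and 12.6% of all genes did so. In progression it was 25 above and 0 below (12.2% and 11.7% of all genes). In terminal spleens it was 12 above and 6 below (21.4% and 18.2%).

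**Figure D2:**
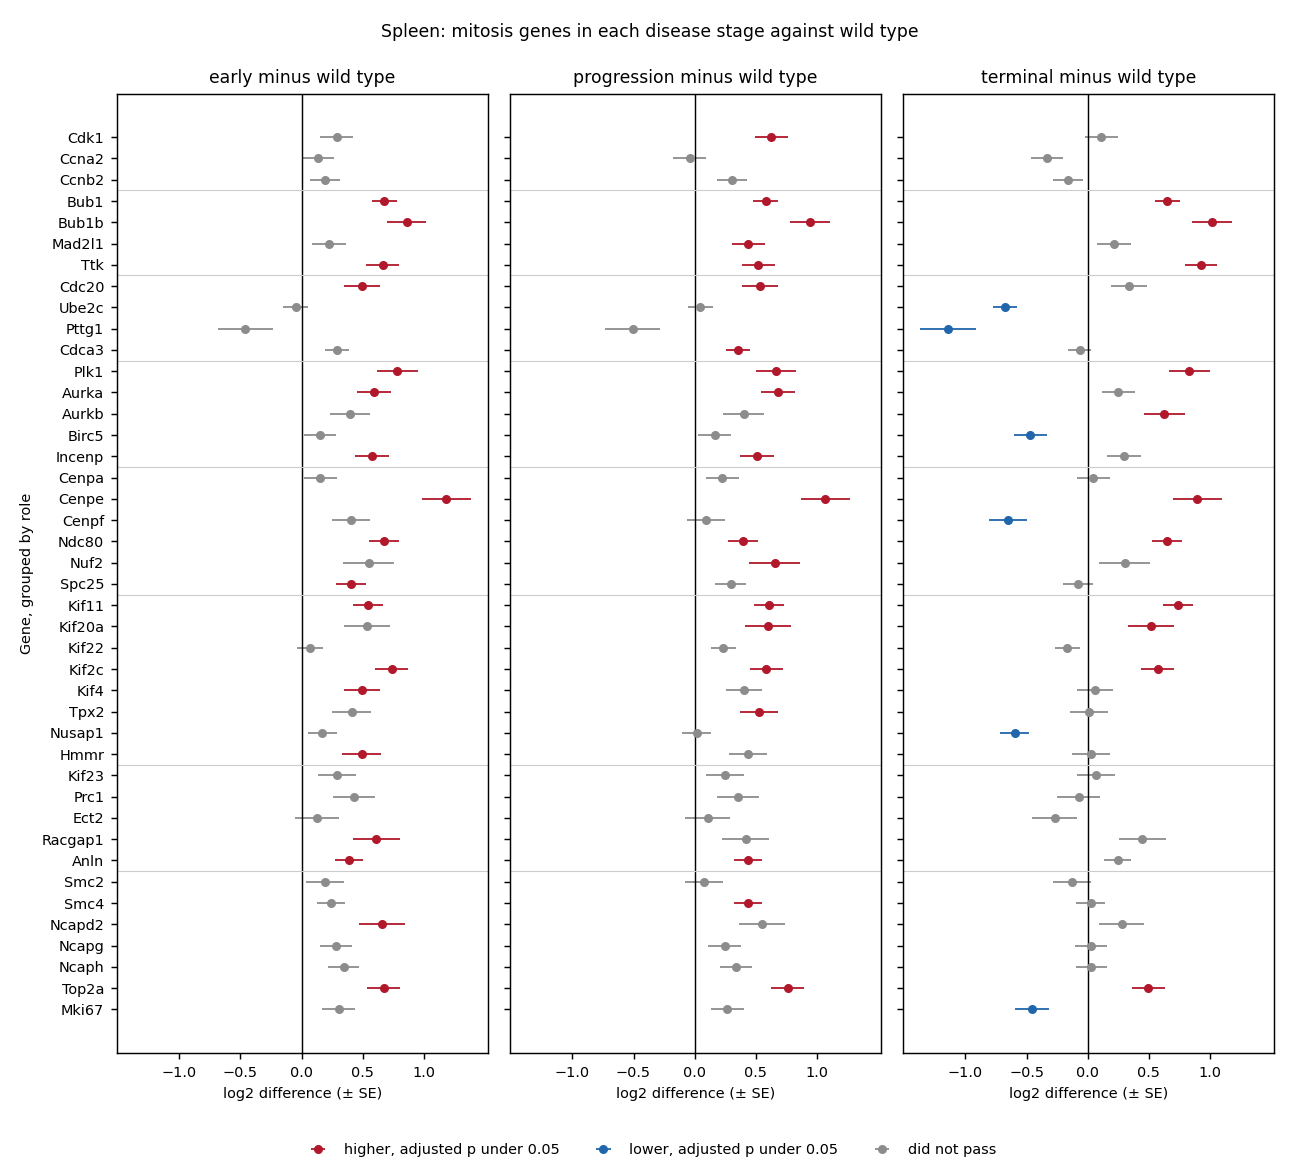
Log2 difference from wild-type spleen (points) ± standard error (bars) for the 42 genes at the early, progression and terminal stages, with genes that passed at an adjusted p under 0.05 in red (higher) or blue (lower). There are 18, 20 and 11 red points and 0, 0 and 6 blue ones.

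The spindle checkpoint genes were the group with the highest median at the terminal stage (0.79), and all 4 stood above wild type at every stage. Bub1b encodes BUBR1, which holds CDC20 inactive in the mitotic checkpoint complex. Its levels were 8.67, 8.64, 8.54, 8.59 and 8.08 in the wild-type spleens, 9.56, 9.45 and 9.09 in the early ones, 9.37, 9.57 and 9.40 in progression and 9.64, 9.20 and 9.71 in terminal spleens. Every fusion array lay above every wild-type array. Bub1b rose by 0.86 ± 0.16 (adjusted p = 0.00252) at the early stage, by 0.94 ± 0.16 (adjusted p = 0.00111) in progression and by 1.01 ± 0.16 (adjusted p = 0.000256) at the terminal stage, the last a fold of 2.02. Ttk encodes MPS1, the kinase that starts checkpoint signalling at unattached kinetochores. Its levels were 8.02, 8.34, 8.10, 8.33 and 7.94 in the wild-type spleens, 9.00, 8.76 and 8.66 in the early ones, 8.50, 8.74 and 8.77 in progression and 8.97, 9.28 and 8.97 in terminal spleens. Again no fusion array overlapped wild type, and the terminal arrays lay above those of progression. Ttk rose by 0.66 ± 0.13 (adjusted p = 0.00352), 0.52 ± 0.13 (adjusted p = 0.0129) and 0.93 ± 0.13 (adjusted p = 9.75e-05) in stage order. Bub1, a kinase of the same pathway, read 9.38, 9.64, 9.62, 9.52 and 9.23 in wild type and between 10.02 and 10.19 on all fusion arrays. It rose by 0.67 ± 0.10 (adjusted p = 0.000582), 0.58 ± 0.10 (adjusted p = 0.00124) and 0.65 ± 0.10 (adjusted p = 0.000222). Mad2l1, which encodes the CDC20 inhibitor MAD2, was higher in progression alone, by 0.44 ± 0.14 (adjusted p = 0.038), with differences of 0.22 at both other stages that did not pass.

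Among the mitotic kinases and the chromosomal passenger complex, Plk1 was raised throughout while the passenger survivin ended low. Plk1 encodes the polo-like kinase of mitotic entry and exit. Its levels were 9.69, 9.61, 9.54, 9.63 and 9.04 in the wild-type spleens, 10.51, 10.38 and 9.97 in the early ones, 10.04, 10.14 and 10.33 in progression and 10.17, 10.26 and 10.57 in terminal spleens. All 9 fusion arrays were above all wild-type arrays, among which replicate 5 was the lowest. Plk1 rose by 0.78 ± 0.17 (adjusted p = 0.00521), 0.67 ± 0.17 (adjusted p = 0.0122) and 0.83 ± 0.17 (adjusted p = 0.00144). Aurka encodes the Aurora kinase of centrosomes and spindle poles. Its levels were 9.42, 9.56, 9.42, 9.54 and 9.08 in the wild-type spleens, 9.95, 10.29 and 9.74 in the early ones, 10.20, 10.12 and 9.94 in progression and 9.75, 9.59 and 9.62 in terminal spleens. No fusion array overlapped wild type, and the terminal arrays were nearest to it. Aurka rose by 0.59 ± 0.14 (adjusted p = 0.00999) at the early stage and by 0.68 ± 0.14 (adjusted p = 0.00335) in progression, and its terminal difference of 0.25 ± 0.14 (adjusted p = 0.186) did not pass.

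Aurkb, Birc5 and Incenp encode the kinase, the survivin subunit and the scaffold of 1 complex, the chromosomal passenger complex, and they differed from wild type in different ways. Aurkb levels were 8.81, 9.17, 8.86, 8.84 and 8.56 in the wild-type spleens, 9.14, 8.97 and 9.61 in the early ones, 9.35, 8.95 and 9.44 in progression and 9.52, 9.53 and 9.37 in terminal spleens. The early and progression arrays overlapped wild type, and the terminal ones lay above it. Aurkb was higher by 0.63 ± 0.17 (adjusted p = 0.00906) at the terminal stage and did not pass at the others (0.39 ± 0.17 and 0.40 ± 0.17). Birc5 levels were 11.24, 11.54, 11.55, 11.50 and 11.28 in the wild-type spleens, 11.64, 11.79 and 11.29 in the early ones, 11.55, 11.46 and 11.73 in progression and 10.83, 10.92 and 11.11 in terminal spleens. The early and progression arrays overlapped wild type and the terminal arrays lay below every other spleen. Birc5 fell by 0.47 ± 0.13 (adjusted p = 0.0129) at the terminal stage, after differences of 0.15 ± 0.13 and 0.16 ± 0.13 that did not pass. Incenp rose by 0.57 ± 0.14 (adjusted p = 0.0116) at the early stage and 0.51 ± 0.14 (adjusted p = 0.0209) in progression, and its terminal difference of 0.30 ± 0.14 did not pass.

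The kinetochore genes held both the largest rise of the early stage and a terminal fall. Cenpe encodes the kinetochore kinesin that brings chromosomes to the spindle equator. Its levels were 8.28, 8.15, 8.05, 8.07 and 7.72 in the wild-type spleens, 9.38, 9.48 and 8.86 in the early ones, 9.26, 9.53 and 8.57 in progression and 8.93, 8.87 and 9.05 in terminal spleens. Every fusion array lay above wild type, with progression replicate 3 the lowest of them. Cenpe rose by 1.18 ± 0.20 (adjusted p = 0.00124), a fold of 2.27, then by 1.07 ± 0.20 (adjusted p = 0.00201) and 0.89 ± 0.20 (adjusted p = 0.00324). Ndc80, Nuf2 and Spc25 encode 3 of the 4 subunits of the NDC80 complex, which grips microtubules. Ndc80 rose at each stage, by 0.67 ± 0.12 (adjusted p = 0.00187), 0.40 ± 0.12 (adjusted p = 0.0348) and 0.65 ± 0.12 (adjusted p = 0.000886). Nuf2 levels were 9.08, 10.10, 10.09, 10.02 and 9.60 in the wild-type spleens, 10.22, 10.21 and 10.54 in the early ones, 10.28, 10.49 and 10.52 in progression and 10.28, 10.10 and 9.85 in terminal spleens. Wild-type replicates 1 and 5 were the lowest, and the terminal arrays overlapped wild type. Nuf2 passed in progression alone, at 0.65 ± 0.21 (adjusted p = 0.0412), and Spc25 at the early stage alone, at 0.40 ± 0.12 (adjusted p = 0.0396). These calls were lost in 8 (Nuf2) and 13 (Spc25) of 19 alternatives, and the Ndc80 call of progression in 11.

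Cenpf, a large protein of the outer kinetochore, moved the other way late in disease. Its levels were 10.23, 10.32, 10.21, 10.48 and 10.05 in the wild-type spleens, 10.62, 10.92 and 10.45 in the early ones, 10.13, 10.17 and 10.76 in progression and 9.50, 9.69 and 9.63 in terminal spleens. The terminal arrays lay below all others. Cenpf fell by 0.65 ± 0.16 (adjusted p = 0.00473) at the terminal stage, and its differences of 0.40 ± 0.16 and 0.10 ± 0.16 at the earlier stages did not pass. Cenpa encodes the histone that marks centromeres. Its levels were 10.42, 10.99, 10.92, 10.85 and 10.61 in the wild-type spleens, 10.86, 10.98 and 10.90 in the early ones, 10.86, 10.98 and 11.12 in progression and 10.85, 10.64 and 10.92 in terminal spleens. All groups overlapped, and its differences of 0.15 ± 0.13, 0.23 ± 0.13 and 0.05 ± 0.13 did not pass.

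Of 8 kinesin and spindle assembly genes, 4 rose at the early stage and 4 in progression, and at the terminal stage 3 were higher and 1 lower. Kif11 encodes Eg5, the motor that pushes spindle poles apart. Its levels were 8.99, 9.30, 9.35, 9.33 and 8.99 in the wild-type spleens, 9.83, 9.79 and 9.58 in the early ones, 9.66, 9.97 and 9.77 in progression and 9.84, 9.92 and 10.02 in terminal spleens. Fusion arrays did not overlap wild type. Kif11 rose by 0.54 ± 0.12 (adjusted p = 0.00828), 0.61 ± 0.12 (adjusted p = 0.00327) and 0.73 ± 0.12 (adjusted p = 0.000364). Kif2c, a kinesin that takes microtubules apart, rose by 0.74 ± 0.14 (adjusted p = 0.00213), 0.59 ± 0.14 (adjusted p = 0.00795) and 0.57 ± 0.14 (adjusted p = 0.0046). Kif20a, a kinesin of the late spindle, rose by 0.60 ± 0.19 (adjusted p = 0.0385) in progression and by 0.52 ± 0.19 (adjusted p = 0.0461) at the terminal stage, and its early difference of 0.53 ± 0.19 did not pass. Kif4 (0.49 ± 0.15) and Hmmr (0.49 ± 0.16) passed at the early stage alone, and Tpx2, the activator of Aurora A, in progression alone (0.53 ± 0.16). These are calls of the brightest probe set. A dimmer one of Hmmr passed in progression and at the terminal stage too, and one of Tpx2 at the early and terminal stages. Nusap1, which bundles spindle microtubules, read 11.11, 11.57, 11.53, 11.55 and 11.27 in wild type and 10.81, 10.88 and 10.74 in terminal spleens, with no overlap. Nusap1 fell by 0.60 ± 0.12 (adjusted p = 0.00157) at the terminal stage, and its earlier differences were 0.17 ± 0.12 and 0.02 ± 0.12. Its other, dimmer probe set stood at -0.12 at the terminal stage, and the call was lost with the mean of both. Kif22 did not pass at any stage in its brightest probe set (0.07, 0.24 and -0.17), while a dimmer one passed as higher in progression and at the terminal stage.

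The partners of the anaphase promoting complex split. Cdc20 encodes its mitotic activator and the target of the checkpoint. Its levels were 10.88, 11.40, 11.17, 11.38 and 10.96 in the wild-type spleens, 11.61, 11.74 and 11.59 in the early ones, 11.50, 11.68 and 11.88 in progression and 11.50, 11.26 and 11.71 in terminal spleens. The early and progression arrays lay above wild type, and 1 terminal array lay within the wild-type range. Cdc20 rose by 0.49 ± 0.15 (adjusted p = 0.0358) at the early stage and 0.53 ± 0.15 (adjusted p = 0.0219) in progression, and its terminal difference of 0.33 ± 0.15 (adjusted p = 0.0985) did not pass. Ube2c encodes the enzyme that hands ubiquitin to the complex. Its levels were 12.89, 12.94, 12.96, 12.99 and 12.79 in the wild-type spleens, 12.98, 12.98 and 12.64 in the early ones, 12.97, 13.02 and 12.89 in progression and 12.27, 12.25 and 12.20 in terminal spleens. The terminal arrays lay below every other spleen. Ube2c fell by 0.67 ± 0.10 (adjusted p = 0.000147) at the terminal stage, and its earlier differences were -0.05 ± 0.10 and 0.05 ± 0.10. Pttg1 encodes securin, which guards the bond between sister chromatids until the complex destroys it. Its levels were 12.67, 12.66, 12.80, 12.92 and 12.65 in the wild-type spleens, 12.11, 12.31 and 12.43 in the early ones, 12.24, 11.76 and 12.69 in progression and 11.96, 10.94 and 11.89 in terminal spleens. All early and terminal arrays lay below wild type, and the terminal arrays were spread over 1 unit. Pttg1 fell by 1.14 ± 0.23 (adjusted p = 0.00139) at the terminal stage, a fold of 2.21, and its differences of -0.46 ± 0.23 and -0.51 ± 0.23 before that did not pass. Cdca3, a cell division gene of this group, passed in progression alone, at 0.35 ± 0.10 (adjusted p = 0.0203).

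**Figure D3:**
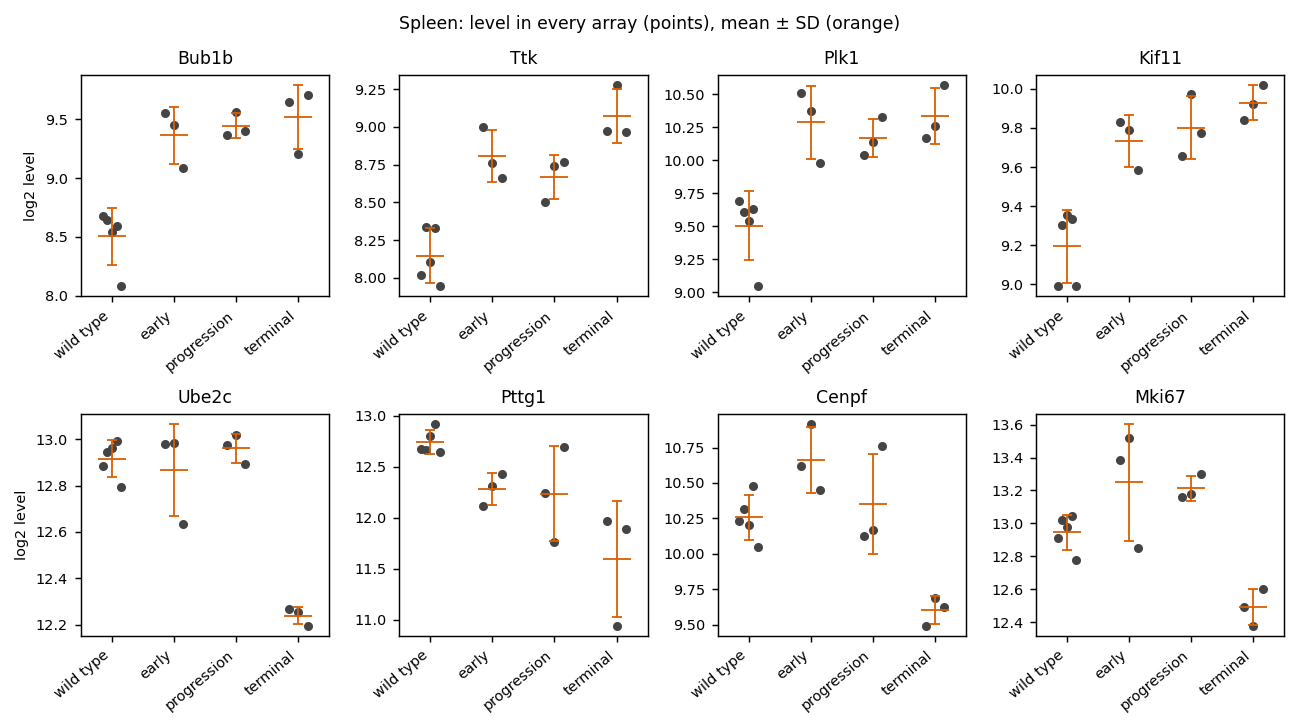
Log2 level of 8 genes on each spleen array (points), with the mean ± SD of each group (orange). The upper row (Bub1b, Ttk, Plk1, Kif11) lies above wild type on every fusion array, and in the lower row the terminal arrays of Ube2c, Pttg1, Cenpf and Mki67 lie below every wild-type array. Each panel has its own log2 axis, which does not start at 0.

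Of CDK1 and 2 mitotic cyclins, Cdk1 alone passed, in progression. Cdk1 levels were 10.43, 10.40, 10.34, 10.31 and 10.00 in the wild-type spleens, 10.62, 10.68 and 10.46 in the early ones, 10.99, 11.14 and 10.64 in progression and 10.56, 10.26 and 10.40 in terminal spleens. The early and progression arrays lay above wild type, and the terminal arrays overlapped it. Cdk1 rose by 0.63 ± 0.13 (adjusted p = 0.00507) in progression and did not pass at the early (0.29 ± 0.13) or terminal stage (0.11 ± 0.13). Ccna2 (-0.33 at the terminal stage) and Ccnb2 (-0.16), the cyclins measured, did not pass at any stage.

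The genes of the spindle midzone and cytokinesis passed seldom. Anln, which encodes the contractile ring protein anillin, rose by 0.39 ± 0.11 (adjusted p = 0.0303) at the early stage and 0.44 ± 0.11 (adjusted p = 0.0145) in progression. Racgap1, of the centralspindlin complex, rose by 0.61 ± 0.19 (adjusted p = 0.0452) at the early stage. Its partner Kif23 and the RhoA activator Ect2 passed at no stage. Prc1 encodes the protein that bundles the antiparallel microtubules of the midzone. Its levels were 10.12, 10.00, 9.94, 10.06 and 9.50 in the wild-type spleens, 10.37, 10.69 and 10.00 in the early ones, 10.12, 10.26 and 10.45 in progression and 9.92, 9.60 and 10.03 in terminal spleens. Each stage overlapped wild type, while the terminal arrays lay below those of progression. The differences from wild type of 0.43 ± 0.17, 0.35 ± 0.17 and -0.07 ± 0.17 did not pass.

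Among the genes of chromosome structure, Top2a and Mki67 parted. Top2a encodes the topoisomerase that untangles sister DNA. Its levels were 11.45, 11.51, 11.32, 11.51 and 10.93 in the wild-type spleens, 12.04, 12.20 and 11.81 in the early ones, 12.09, 12.09 and 12.12 in progression and 11.87, 11.80 and 11.84 in terminal spleens. No fusion array overlapped wild type. Top2a rose by 0.67 ± 0.13 (adjusted p = 0.00369), 0.76 ± 0.13 (adjusted p = 0.00135) and 0.49 ± 0.13 (adjusted p = 0.0109). Its other, dimmer probe set stood at 0.01, -0.12 and -0.14, and all 3 calls were lost with the mean of both. Mki67 encodes Ki-67, the surface layer of mitotic chromosomes and a common stain for cycling cells. Its levels were 12.91, 13.02, 12.98, 13.05 and 12.78 in the wild-type spleens, 13.38, 13.52 and 12.85 in the early ones, 13.16, 13.18 and 13.30 in progression and 12.49, 12.38 and 12.60 in terminal spleens. Of the early arrays 2 lay above wild type and 1 within it, and the terminal arrays lay below all others. Mki67 fell by 0.45 ± 0.14 (adjusted p = 0.0184) at the terminal stage, after 0.30 ± 0.14 (adjusted p = 0.158) and 0.27 ± 0.14 (adjusted p = 0.188). Of the condensin genes, Ncapd2 rose at the early stage by 0.66 ± 0.19 (adjusted p = 0.0281) and Smc4 in progression by 0.44 ± 0.12 (adjusted p = 0.0188). Ncapg levels were 8.47, 9.01, 8.89, 8.88 and 8.63 in the wild-type spleens, 9.10, 9.14 and 8.92 in the early ones, 8.90, 8.97 and 9.18 in progression and 8.71, 8.70 and 8.99 in terminal spleens. All groups overlapped in Ncapg, whose differences were 0.28 ± 0.13, 0.24 ± 0.13 and 0.03 ± 0.13.

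Set against the earlier stages, the terminal spleens were lower for some of these genes and higher for none that passed. Against progression 6 genes were lower, when 5.86% of all genes passed (2.56% higher and 3.3% lower). Cenpf fell by 0.75 ± 0.17 (adjusted p = 0.024), Mki67 by 0.72 ± 0.15 (adjusted p = 0.0151) and Ube2c by 0.72 ± 0.11 (adjusted p = 0.00168). Birc5 fell by 0.63 ± 0.15 (adjusted p = 0.0241), Nusap1 by 0.61 ± 0.13 (adjusted p = 0.0187) and Cdca3 by 0.42 ± 0.11 (adjusted p = 0.0356). Against the early stage 5 were lower, when 6.61% of all genes passed (2.73% higher and 3.88% lower). Cenpf fell by 1.06 ± 0.17 (adjusted p = 0.00186), Nusap1 by 0.77 ± 0.13 (adjusted p = 0.00332) and Mki67 by 0.76 ± 0.15 (adjusted p = 0.00902). Ube2c fell by 0.63 ± 0.11 (adjusted p = 0.00394) and Birc5 by 0.62 ± 0.15 (adjusted p = 0.0245). The median over the 42 genes was -0.28 against progression and -0.27 against the early stage, beside 0.01 and 0.02 over all genes. The terminal mean was below both other stages for 34 genes and above both for 5 (Bub1b, Ttk, Plk1, Aurkb and Kif11). These orders of means were not counted over all genes. All terminal arrays lay below all progression arrays for 21 genes and above them for Bub1 and Ttk (11.6% and 12.9% of all genes). Against the early arrays it was 15 genes below and Kif11 above (11% and 13.8%).

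These counts between stages rest on few arrays, and Xist was high on all terminal spleens and on no progression spleen. Against progression, 3, 2 and 3 genes passed without terminal replicate 1, 2 and 3, 1 with the Xist level as a covariate and 2 without the 3 spleens with pancreas signal. Against the early stage, 3, 3 and 13 genes passed without early replicate 1, 2 and 3, and 1 without the 3 spleens with pancreas signal. Progression and early spleens did not differ in any of the 42 genes by the test, nor in any of all genes (0% passed, limma), with 1 of the 42 at an unadjusted p under 0.05. All progression arrays lay below all early arrays for Bub1 alone (3.06% of all genes below, 4.18% above). The smallest p were those of Cdk1 (0.34 ± 0.15 (adjusted p = 0.67)), Ndc80 (-0.28 ± 0.14 (adjusted p = 0.682)) and Cenpf (-0.31 ± 0.17 (adjusted p = 0.711)).

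Markers of other blood cells moved strongly in the same spleens. Of 16 erythroid genes none passed at the early stage or in progression, and 14 were lower at the terminal stage (16.3% of all genes were), where their mean was 9.39 to 9.96 against 11.18 to 11.44 in wild type. Epb42 (-3.42), Alas2 (-3.07) and Fech (-2.18) had the smallest p among them. Against progression 12 of the 16 were lower and against the early stage 14. Of 11 B cell genes 9, 11 and 11 were lower at the 3 stages (8.55%, 9.96% and 16.3% of all genes), and all 8 T cell genes were lower at each. All 6 genes of immature granulocytes were higher at each stage, with means of 11.19 to 12.81 on the fusion arrays and 8.06 to 9.31 in wild type, as were all 9 of late neutrophils (7.35%, 9.29% and 18.1% of all genes). Erythroid precursors, lymphocytes and granulocyte precursors can all divide, and the part of these cell types in the results on mitosis genes was not tested.

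**Figure D4:**
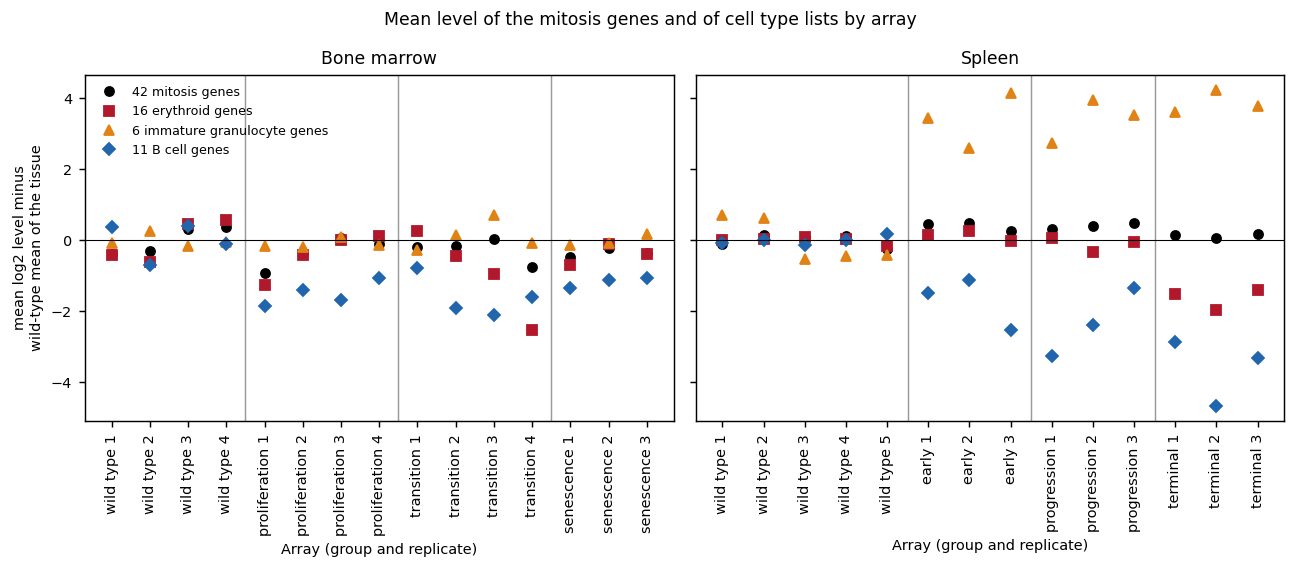
Mean log2 level of the 42 mitosis genes and of 3 cell type lists on each array, minus the wild-type mean of the tissue. Terminal spleens lie between -1.96 and -1.39 in the erythroid genes, and in marrow the arrays proliferation 1 and transition 4 are lowest in the mitosis genes (-0.93 and -0.76) and low in the erythroid genes (-1.25 and -2.53).

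Other genes of the pathway were counted in lists, to be read beside the shares of all genes that were higher (7.35%, 9.29% and 18.1% at the early, progression and terminal stages) or lower (8.55%, 9.96% and 16.3%). Of 42 further kinetochore, spindle and cytokinesis genes, 19 rose at the early stage, 15 rose in progression and 17 rose at the terminal stage, where 4 fell. Their medians were 0.42, 0.34 and 0.24. Trip13, which remodels the checkpoint protein MAD2, rose by 0.86 ± 0.10 (adjusted p = 0.000146), 0.78 ± 0.10 (adjusted p = 0.000193) and 1.23 ± 0.10 (adjusted p = 1.57e-06). Cep55, of the final cut of cell division, rose at the terminal stage by 2.21 ± 0.26 (adjusted p = 2.16e-05). Cdc25b, a phosphatase that activates CDK1, differed there by -2.31 ± 0.24 (adjusted p = 7.36e-06). Of 13 further genes of the anaphase promoting complex none passed at the earlier stages, and at the terminal stage 3 were higher and 1, Fzr1, was lower, at -1.14 ± 0.14 (adjusted p = 3.19e-05). Fzr1 encodes CDH1, which takes over from CDC20 late in mitosis. Of 10 cohesin and condensin II genes 3, 1 and 0 rose, and of 27 DNA replication genes 7, 13 and 10 rose, with 1 lower at the terminal stage.

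Of 15 regulators of mitotic gene transcription 4 rose at the early stage (7.35% of all genes). Foxm1, which activates late cell cycle genes, rose by 0.70 ± 0.19 (adjusted p = 0.0223), Mybl2, its partner, by 0.62 ± 0.19 (adjusted p = 0.0368) and E2f1 by 0.82 ± 0.23 (adjusted p = 0.0292). In progression these 3 stood at 0.21, 0.38 and 0.49 and at the terminal stage at 0.46, 0.17 and 0.42, and did not pass. E2f4 passed at no stage (0.28, 0.18 and 0.21). Rb1, which encodes the retinoblastoma protein that restrains E2F, fell at the terminal stage by 1.00 ± 0.13 (adjusted p = 5.25e-05).

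For 22 of the 42 genes there was more than 1 probe set, and these did not always tell the same story. At the terminal stage the brightest probe set passed in 8 of the 22, and in 7 others only a dimmer one did. Among these 7, a dimmer Ncapg probe set was higher by 2.15 ± 0.64 (adjusted p = 0.0192 over all probe sets) where the brightest stood at 0.03, and one of Hmmr was higher by 1.15 ± 0.22 (adjusted p = 0.00148) where the brightest stood at 0.02. A dimmer Tpx2 probe set was higher by 0.95 ± 0.19 (adjusted p = 0.00186), against 0.01. Both dimmer Cdc20 probe sets were higher, by 0.72 ± 0.16 and 1.02 ± 0.13 (adjusted p = 0.00312 and 5.7e-05), against 0.33. Kif22 (0.67 ± 0.16) and Ncaph (0.35 ± 0.13) likewise passed as higher in a dimmer probe set, and Ccna2 passed as lower (-0.51 ± 0.18). Kif11, called from its brightest probe set, stood at 0.21 and 1.13 in the others, neither of which passed. Besides Top2a and Nusap1, Cenpf too had a weaker second probe set (-0.13 against -0.65), which did not pass. All 3 Pttg1 probe sets were below wild type (-1.14, -1.49 and -0.68), the last not passing. At the early stage only a dimmer probe set passed in 4 genes (Pttg1, Racgap1, Hmmr and Tpx2), 3 as higher and 1 as lower. In progression this was so in 3 (Kif22, Ncaph and Hmmr), all as higher. Here p was adjusted over all probe sets, by which the brightest of Racgap1 and Hmmr did not pass at the early stage. In no gene did 2 probe sets pass in opposite directions. Taking the mean of all probe sets, 13 genes were higher and 6 lower at the terminal stage.

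**Figure D5:**
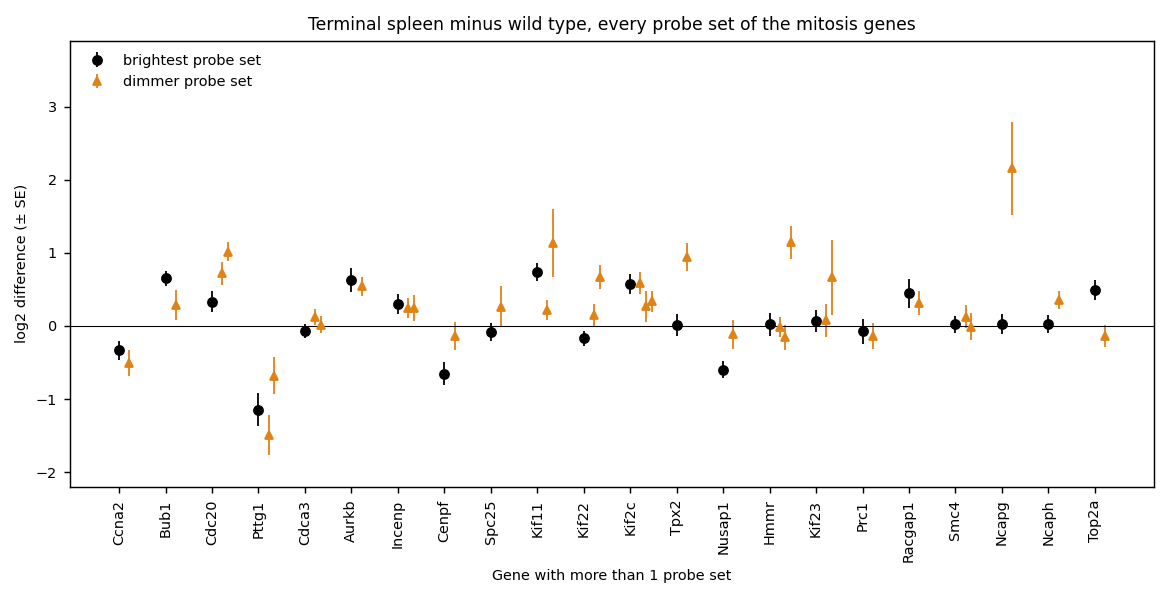
Log2 difference of terminal from wild-type spleen (± standard error) for every probe set of the 22 genes with more than 1, with the brightest in black and the others in orange. The dimmer probe sets of Ncapg, Hmmr, Tpx2 and Cdc20 lie well above the brightest, and all 3 of Pttg1 lie below 0.

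In bone marrow no mitosis gene passed in any comparison. In the state labelled proliferation 41 of the 42 genes had a mean below wild type, with Smc4 alone above it, and the median difference was -0.34, beside 0.01 over all genes. In transition the median was -0.28 (all genes 0.04) and in senescence -0.33 (all genes 0.00), with all 42 genes below wild type in senescence. In all, 39 genes were below the wild-type mean in all 3 states, which was not counted over all genes. None of the 42 passed in proliferation, when 0.282% of all genes did so (0.113% higher and 0.169% lower), nor in transition (0.42% of all genes, 0.186% higher and 0.234% lower), nor in senescence (0.0484%, 0.0323% higher and 0.0161% lower). At an unadjusted p under 0.05 there were 3, 3 and 0 by limma. The smallest p in proliferation were those of Spc25 (-0.60 ± 0.25 (adjusted p = 0.424)), Cdk1 (-0.48 ± 0.22 (adjusted p = 0.476)) and Kif23 (-0.33 ± 0.15 (adjusted p = 0.491)). In transition they were those of Kif22 (-0.33 ± 0.15 (adjusted p = 0.462)), Spc25 (-0.57 ± 0.25 (adjusted p = 0.462)) and Kif23 (-0.33 ± 0.15 (adjusted p = 0.477)). In senescence they were those of Ttk (-0.48 ± 0.24 (adjusted p = 0.81)), Kif23 (-0.33 ± 0.16 (adjusted p = 0.81)) and Ncaph (-0.51 ± 0.28 (adjusted p = 0.837)).

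The spread between marrow arrays was as wide as these differences. The mean level of the 42 genes was 11.63, 11.71, 12.33 and 12.40 on the wild-type arrays, 11.09, 11.64, 12.08 and 11.92 in proliferation, 11.82, 11.87, 12.05 and 11.26 in transition and 11.56, 11.80 and 11.65 in senescence. Proliferation marrow 1 was the lowest of the 15 arrays for 27 genes and transition marrow 4 for 12. Wild-type marrow 4 was the highest for 26 genes and wild-type marrow 3 for 10. The 4 arrays were also at the ends of the erythroid mean, with 11.28 and 10.00 on the low arrays and 12.98 and 13.10 on the high ones, and proliferation marrow 1 is the array with fat and muscle signal. Among the wild-type marrows Xist was high on the same 2 arrays, 3 and 4 (13.04 and 13.11), and low on 1 and 2 (7.21 and 7.60). With the Xist level as a covariate no gene passed either. The parts of erythroid cells and of sex in the spread between marrow arrays were not tested. Without proliferation marrow 1 the median difference of that state was -0.15, and without transition marrow 4 that of transition was -0.09. These were the values nearest to no difference. Over all alternatives the median ran from -0.55 to -0.15 in proliferation, from -0.44 to -0.09 in transition and from -0.47 to -0.22 in senescence.

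The arrays of single genes repeat this spread. Mki67 levels were 14.20, 13.92, 14.58 and 14.63 in wild-type marrow, 13.63, 14.45, 14.52 and 14.38 in proliferation, 14.14, 14.33, 14.18 and 13.79 in transition and 13.90, 14.37 and 14.05 in senescence. All 4 groups overlapped, with proliferation replicate 1 far below its group. Top2a levels were 13.10, 12.85, 13.50 and 13.48 in wild-type marrow, 12.40, 13.20, 13.45 and 13.25 in proliferation, 13.01, 13.36, 13.52 and 12.94 in transition and 12.70, 13.26 and 13.08 in senescence. These too overlapped. Cdk1 levels were 11.70, 11.75, 12.16 and 12.37 in wild-type marrow, 11.11, 11.35, 11.81 and 11.79 in proliferation, 11.71, 11.65, 12.01 and 11.11 in transition and 11.57, 11.95 and 11.84 in senescence. Wild-type replicates 3 and 4 were above all other arrays. Cdc20 levels were 13.03, 13.08, 13.70 and 13.77 in wild-type marrow, 12.76, 12.93, 13.47 and 13.31 in proliferation, 13.06, 13.48, 13.48 and 12.70 in transition and 12.75, 13.28 and 13.13 in senescence. The same 2 wild-type arrays were the highest. Ube2c levels were 12.21, 12.47, 13.15 and 13.18 in wild-type marrow, 11.58, 11.99, 12.59 and 12.50 in proliferation, 12.99, 12.19, 12.74 and 11.04 in transition and 12.45, 12.29 and 12.37 in senescence. Transition replicate 4 was the lowest of all, and transition replicate 1 lay among the highest.

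The checkpoint and kinase genes gave the same picture. Bub1b levels were 11.41, 11.48, 12.15 and 11.76 in wild-type marrow, 11.05, 11.51, 11.91 and 11.77 in proliferation, 11.51, 11.83, 12.25 and 11.49 in transition and 11.51, 11.44 and 11.46 in senescence. The highest array was of the transition group, and all groups overlapped. Plk1 levels were 11.91, 11.43, 12.24 and 12.35 in wild-type marrow, 10.55, 11.50, 12.14 and 11.91 in proliferation, 11.57, 11.90, 11.64 and 11.33 in transition and 11.10, 11.75 and 11.60 in senescence. Proliferation replicate 1 was the lowest. Aurka levels were 11.61, 11.25, 11.98 and 12.17 in wild-type marrow, 10.39, 11.23, 11.80 and 11.72 in proliferation, 11.64, 11.48, 11.47 and 10.66 in transition and 11.08, 11.53 and 11.41 in senescence. Proliferation replicate 1 and transition replicate 4 were the lowest. Aurkb levels were 11.21, 11.03, 11.73 and 11.89 in wild-type marrow, 10.21, 11.06, 11.43 and 11.33 in proliferation, 11.03, 11.36, 11.53 and 10.69 in transition and 10.93, 11.18 and 11.11 in senescence. The same 2 arrays were lowest again. Birc5 levels were 11.13, 11.65, 12.14 and 12.25 in wild-type marrow, 10.85, 10.88, 11.53 and 11.37 in proliferation, 11.99, 11.08, 11.93 and 10.32 in transition and 11.55, 11.56 and 11.28 in senescence. Here transition held arrays near both ends of the whole range.

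Kinetochore, spindle and chromosome genes did not part the groups either. Cenpa levels were 11.65, 12.07, 12.52 and 12.78 in wild-type marrow, 11.50, 11.82, 12.26 and 12.07 in proliferation, 11.90, 12.07, 12.59 and 11.48 in transition and 11.92, 11.88 and 12.08 in senescence. All groups overlapped. Cenpe levels were 9.53, 9.12, 10.33 and 10.62 in wild-type marrow, 8.66, 9.81, 10.05 and 9.54 in proliferation, 8.89, 10.11, 9.58 and 9.27 in transition and 8.58, 9.88 and 9.05 in senescence. Its spread within a group exceeded 1 unit in every group. Nuf2 levels were 11.71, 11.55, 12.33 and 12.48 in wild-type marrow, 10.81, 11.73, 12.12 and 11.82 in proliferation, 11.57, 11.87, 11.86 and 11.49 in transition and 11.48, 11.65 and 11.58 in senescence. Proliferation replicate 1 was the lowest. Kif11 levels were 10.96, 10.95, 11.89 and 12.02 in wild-type marrow, 10.16, 10.99, 11.70 and 11.59 in proliferation, 11.28, 11.40, 11.38 and 10.33 in transition and 10.68, 11.14 and 10.76 in senescence. Transition replicate 4 stood about 1 unit below its group. Prc1 levels were 12.21, 12.19, 12.96 and 12.97 in wild-type marrow, 11.48, 12.20, 12.61 and 12.52 in proliferation, 12.36, 12.25, 12.33 and 11.81 in transition and 12.02, 12.63 and 12.18 in senescence. The 2 highest arrays were wild type. Ncapg levels were 9.58, 10.23, 10.98 and 10.73 in wild-type marrow, 9.40, 10.00, 10.65 and 10.44 in proliferation, 10.22, 10.40, 10.52 and 9.32 in transition and 10.18, 9.94 and 9.80 in senescence. The wild-type arrays spanned almost the whole range.

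Between the marrow states the 42 genes did not part, and neither did all genes (0% passed in each of the 3 comparisons, limma). None of the 42 had an unadjusted p under 0.05 in any of them. The median of transition minus proliferation was 0.08, with the smallest p for Ndc80 (0.21 ± 0.21), Bub1b (0.21 ± 0.21) and Kif2c (0.20 ± 0.23). The median of senescence minus transition was -0.10, with Bub1 (-0.43 ± 0.31), Bub1b (-0.30 ± 0.23) and Kif2c (-0.28 ± 0.25) first. The median of senescence minus proliferation was -0.03, with Cdk1 (0.27 ± 0.23), Ccnb2 (0.30 ± 0.32) and Smc4 (-0.19 ± 0.22) first. Without proliferation marrow 1 the medians against proliferation were -0.12 for transition and -0.23 for senescence. None of the 42 genes separated the single arrays of proliferation from wild type, where 7.46% of all genes lay above and 2.29% below, nor those of transition (1.9% above and 1.9% below). All senescence arrays lay below all wild-type arrays for Pttg1 and Kif23 (2.07% of all genes below, 3.97% above) and below all transition arrays for Ndc80 (1.78% below, 1.49% above). Against proliferation no gene of the 42 separated, in transition (0.791% of all genes above, 0.597% below) or in senescence (1.48% and 1.37%). None of the further pathway genes passed in marrow, Foxm1, Mybl2, E2f1 and E2f4 included. B cell genes were lower in proliferation and transition (3 of 11 in each), and none of the 16 erythroid genes passed. The mean of 6 early B precursor genes was 8.13 to 9.47 on the wild-type marrows. It was lower on every fusion marrow, at 6.55 to 7.65 in proliferation, 6.64 to 7.66 in transition and 6.60 to 7.98 in senescence. The part of these cells in the marrow results on mitosis genes was not tested.

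The difference between the tissues was tested as such. The mean of the 3 fusion groups minus wild type in spleen, less the same in marrow, was positive for 41 of the 42 genes, and 17 passed as higher and none as lower, when 14% of all genes passed (5.42% higher and 8.54% lower). The median was 0.67, beside 0.03 over all genes. Cenpe had the largest value, 1.56 ± 0.37 (adjusted p = 0.00499), followed by Plk1 at 1.20 ± 0.29 (adjusted p = 0.00513), Ttk at 1.08 ± 0.21 (adjusted p = 0.00088) and Bub1b at 1.04 ± 0.22 (adjusted p = 0.00205). Kif11 stood at 0.98 ± 0.25 (adjusted p = 0.00912) and Kif2c at 0.95 ± 0.23 (adjusted p = 0.00474). By role 3 of 4 checkpoint genes, 4 of 6 kinetochore genes and 3 of 5 kinase and passenger genes passed. Pttg1 was the 1 gene below 0, at -0.46 ± 0.24 (adjusted p = 0.236). Of the regulators E2f1 passed, at 0.79 ± 0.26 (adjusted p = 0.0436). Without proliferation marrow 1, wild-type spleen 3 and early spleen 1, which had signal of another tissue, 11 of the 42 genes passed, and 7 did with wild-type spleen 5 left out too (Bub1b, Ttk, Plk1, Cenpe, Ndc80, Kif11 and Kif2c).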

How the data were processed

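RNA of whole bone marrow and spleen was hybridised to 29 Affymetrix arrays (15 marrow, 14 spleen). The authors deposited log2 values per probe set, normalised with RMA, and the submitters' processing notes name affy, limma and RMA without versions. No further normalisation was applied. Of 22690 probe sets, 20393 carried 1 gene symbol, 691 several and 1606 were not listed, and those with 1 symbol gave 12394 genes. Each gene was read from its brightest probe set, chosen per tissue by the mean over all its arrays. Aurkb and Kif11 thereby used another probe set in marrow than in spleen. The contrast between tissues used the brightest by the mean of the tissue means, which for these genes was the spleen one in both tissues. Groups were taken from the labels. limma 3.58.1 (R 4.3.3; lmFit and eBayes) was fitted to all groups of a tissue at once, and the contrast between tissues to all 29 arrays, with Benjamini-Hochberg adjustment over 12394 genes. The members and lists were chosen with earlier results of these data known. Per-array values are given for genes of a set list and those with the largest called rise in progression against wild-type spleen, the comparison with most calls. Spleen values of Ttk, Bub1, Pttg1, Cenpf and Nusap1 are given outside this rule. The 3 smallest p are named where none passed. The fits to single probe sets were added after the data were seen. The fit was tested on simulated data with 200 changed genes. The number of arrays limits precision, and p-values measure the spread between these arrays. No arrays shared identical values (marrow arrays correlated at 0.962 to 0.995, spleen arrays at 0.938 to 0.996). No protein sequences were used here. Alternatives changed 1 choice at a time: quantile normalisation or median centring, a filter on low levels, the probe set rule, the arrays fitted, eBayes settings, Xist or the Gapdh 3'/5' difference as a covariate, a replicate block and leaving out arrays.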

Additional observations from a re-analysis of the deposited data

Results flagged for a closer look

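A sample stood far from its own group in 6 of the 64 combinations of gene and group that were examined. The limit used lets through about 1 in 20 by chance. Only groups of 4 or 5 arrays were examined, so senescence marrow and the early, progression and terminal spleens (3 arrays each) were not. The combinations share arrays and are not independent, and 4 of the 6 are of 1 array. Mki67 was low (13.63) in proliferation marrow 1 and Kif11 was low (10.33) in transition marrow 4. Wild-type spleen 5 was low for Cdk1 (10.00), Bub1b (8.08), Plk1 (9.04) and Aurka (9.08), genes that were compared with that group at all 3 stages.

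The fusion effect differed between spleen and marrow for 17 genes, by a test of the difference itself (limma, log2 of spleen minus marrow). The checkpoint genes were Bub1 (0.86), Bub1b (1.04) and Ttk (1.08). The kinetochore genes were Cenpe (1.56), Ndc80 (0.81), Nuf2 (0.89) and Spc25 (0.74). The kinases and their partners were Cdk1 (0.70), Plk1 (1.20), Aurka (0.95), Incenp (0.68) and Cdc20 (0.73). The motors and chromosome genes were Kif11 (0.98), Kif2c (0.95), Kif23 (0.53), Ncaph (0.70) and Top2a (0.77). All 17 had a mean below wild type over the 3 marrow states and above it over the 3 spleen stages.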

How the results depend on the processing

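Of 83 calls of single genes, 27 were kept in every alternative and 56 were lost in at least 1. Some calls against wild-type spleen were lost in 10 or more of 19 alternatives. At the early stage these were Spc25 (13), Hmmr (12), Racgap1 (11) and Cdc20 (10). In progression they were Mad2l1 (11), Ndc80 (11) and Kif20a (10), and at the terminal stage Kif20a (11). At the terminal stage the 17 calls became 12 to 19 over all alternatives. At the early stage the 18 calls became 7 with the replicate block, 6 without the arrays with signal of another tissue, 2 with wild-type spleen 5 left out too, and 9 to 18 when 1 array was left out. In progression the 20 became 8 with the replicate block, 7 without those arrays and wild-type spleen 5, and 9 to 20 when 1 array was left out. For terminal against progression the 6 became 10 among genes above the median level, 2 with only the groups compared, 1 with Xist as a covariate, 1 with the replicate block, 2 without those arrays and wild-type spleen 5, and 2 to 9 when 1 array was left out. For terminal against early the 5 became 8 above the median level, 2 with only the groups compared, 3 with the replicate block, 3 without the arrays with signal of another tissue, 1 without wild-type spleen 5 too, and 3 to 13 when 1 array was left out. The contrast of the tissues went from 17 to 9 with the replicate block, 11 without the arrays with signal of another tissue and 7 without wild-type spleen 5 too. Leaving out wild-type spleen 5 together with the others was chosen after seeing the data. The causes were not tested. In marrow, and for progression against early, there were 0 calls in every setting. Deviations from the group means were correlated between same-numbered arrays. They ranged from -0.43 to 0.55 in marrow (10 of 21 pairs over 0.1) and from -0.32 to 0.23 in spleen (5 of 18). The replicate numbers were therefore not taken to pair the mice.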

Other observations

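DNA replication genes moved with the mitosis genes in part. Cdc45, of the replicative helicase, rose by 1.02 ± 0.17 (adjusted p = 0.00122) at the early stage, 1.25 ± 0.17 (adjusted p = 0.000249) in progression and 1.14 ± 0.17 (adjusted p = 0.000158) at the terminal stage. Rfc5, of the clamp loader, rose by 0.86 ± 0.10 (adjusted p = 2.26e-05) at the terminal stage. Rrm2, which makes deoxynucleotides, fell there by 0.59 ± 0.15 (adjusted p = 0.0083).

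The main limits are few arrays per group, whole tissue of changing cell makeup, and dimmer probe sets that at the terminal stage passed in 7 genes whose brightest did not. Spleen stages differ in months of tamoxifen, so time and stage cannot be told apart. The terminal spleens had 19 to 23 months, as against 24 in wild-type spleen 1 and 8 to 11 in the other wild-type spleens. Months and stage are thus mixed in the terminal comparison with wild type as well. Xist was high on all terminal spleens and on no progression spleen, so between these stages sex cannot be told apart from stage either. Sex was uneven against wild type too. Xist was high on all terminal spleens but, among wild-type spleens, on 1 and 5 only. It was high on all proliferation and transition marrows but, among wild-type marrows, on 3 and 4 only. With the Xist level as a covariate the terminal calls of Birc5 and Mki67 against wild type were lost.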
